A study of Mus musculus with 6 samples.

Results

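A set of 8 genes linked to a fetal-like or injured intestinal epithelium was followed in mouse small intestine: Spp1, Clu, Cd109, Ly6a, Cd44, Msln, Anxa1 and Anxa2. They were taken from the deposited count table by gene symbol, and 8 of 8 symbols were found among its 33017 genes. The members were chosen by their known role together with the CPM values and fold changes of these same control and model libraries, which were in view when the list was drawn up. Model against control is the only comparison in the series, so the members' differences are given as a description with no test. Of the 8 genes, 7 had enough counts to enter the fit across all genes, and 1, Anxa1, was listed at 0 in all 6 libraries.

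Messenger RNA was sequenced from frozen small intestine of mice (Mus musculus) in 2 groups, labelled control and model, with 3 libraries each. The title of the series speaks of simulated microgravity and radiation, and its design text of the effect of both factors together, but the labels do not spell out what either group received. The title also names protective compounds from CB001, but no library used here is labelled as having received them. Strain, age, sex, dose, duration and the segment of intestine taken do not appear in the labels, nor whether each library came from its own animal, so SDs and SEs describe only the spread between these libraries.

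The adult intestinal epithelium is renewed from stem cells at the base of the crypts. After damage such as irradiation or infection, crypt cells can lose stem cell transcripts for a time and take on a state that resembles the epithelium of the fetus, marked among others by Ly6a (Sca-1), annexins and Clu, and driven in part by the transcriptional co-activator YAP. Several of these genes are also used by other cells of the gut wall: Spp1 and Cd44 by leukocytes, Ly6a by endothelium and lymphocytes, Clu by stromal cells of lymphoid follicles, and Msln by the mesothelium that covers the organ.

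Library totals ran from 35007515 to 45285564 counts. Levels are CPM, read counts as parts of a library total that was scaled by TMM to correct for composition, and log2 fold changes compare model with control. Of the 6 libraries, 2 stood apart from the others in marker genes. In control 3 the summed level of 3 ileal markers (Fabp6, Slc10a2, Fgf15) was 1814 CPM against 1.16 to 4.74 CPM in the other 5 libraries, although Fgf15 was at most 0.142 CPM in any library. In the same library the sum of 5 proximal markers (Gata4, Onecut2, Cybrd1, Slc40a1, Fabp1) was 237 CPM against 1840 to 2871 CPM. In model 3 the sum of 7 markers of exocrine pancreas was 6211 CPM against 4.94 to 27.6 CPM elsewhere, and B cell markers, of which 5 of 6 were detected and Ms4a1 was listed at 0, summed to 12.5 to 36.3 CPM in 4 libraries but to 229 CPM in control 3 and 144 CPM in model 3. Epithelial markers (Epcam, Cdh1, Krt8, Krt18, Krt19, Vil1 and Cdx2) were abundant in each library, with sums from 7419 to 10631 CPM. Members and gene lists are therefore also given without control 3, and without control 3 and model 3 together. The first is 1 of the planned fits that leave out 1 library, singled out after these marker values were seen. The second was chosen after the data were seen. The fit without model 3 alone is given for some of the members and lists.

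Across the 15904 genes fitted, edgeR's quasi-likelihood test called 0 genes (0%) at an adjusted p under 0.05, with a smallest adjusted p of 0.851. At an unadjusted p under 0.05 it gave 765 genes (4.81%), and DESeq2, run as an alternative, called 25. Every model library lay on one side of every control library for 2 of the 7 fitted members, Spp1 above and Cd109 below. The same held for 1758 (11.1%) of all fitted genes, 4.73% with model above and 6.33% with model below. The median log2 fold change was 0.14 over the 7 members, 4 above 0 and 3 below, and -0.018 over all fitted genes. Since the members were chosen with this contrast known, nothing is read from these counts.

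**Figure D1:**
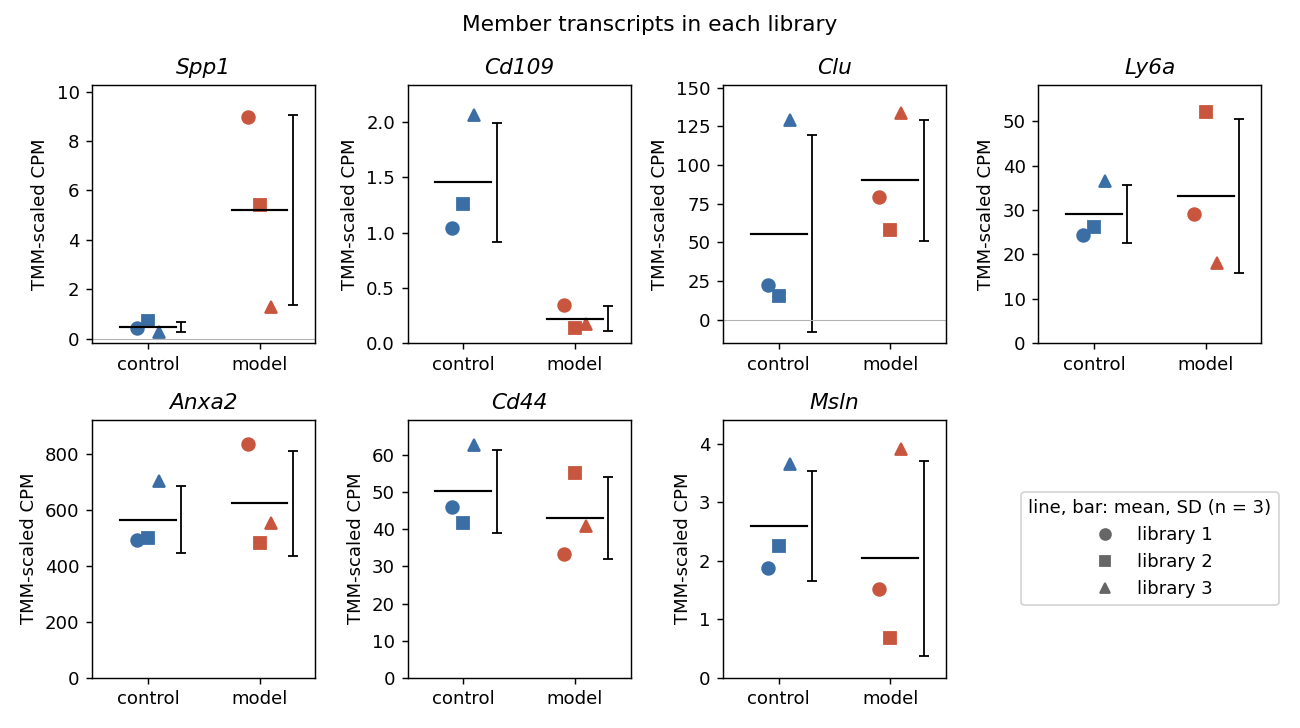
CPM of the 7 fitted members (vertical axes, TMM-scaled) in each control and model library, with the group mean as a line and the SD as a bar (n = 3). The groups are apart for Spp1, from 0.285 to 0.695 CPM in the control group and 1.28 to 8.97 CPM in the model group, and for Cd109 in the other direction, while for Clu a single control library, control 3, lies among the model values.

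Among the secreted members, Spp1 differed most. Spp1 encodes osteopontin, a secreted phosphoprotein that binds integrins and CD44. It had 21, 26 and 12 counts in control 1, 2 and 3, or 0.438, 0.695 and 0.285 CPM, and 259, 239 and 45 counts in model 1, 2 and 3, or 8.97, 5.42 and 1.28 CPM. The 3 model libraries were all above the control libraries, but they were spread over a wide range, and model 3 lay much nearer to the controls than to model 1. The means were 0.473 ± 0.207 CPM in the control group and 5.22 ± 3.85 CPM in the model group (SD, n = 3), an 11-fold difference with a log2 fold change of 3.46 (SE 0.75). In whole tissue, a change in the number of cells of a type and a change in RNA per cell cannot be told apart. This holds for Spp1 and for the genes that follow.

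The Spp1 difference was of similar size without the libraries that stood apart. Its log2 fold change was 3.22 (SE 0.86) without control 3, 3.93 (SE 0.52) without model 3 and 3.66 (SE 0.53) without both. Macrophage markers, 8 of 8 detected, summed to between 168 and 362 CPM in the control group and between 268 and 300 CPM in the model group, so those sums overlapped where Spp1 did not. T cell markers, 6 of 6 detected, summed to 71.8 to 114 CPM in the control group and to 148, 136 and 110 CPM in model 1, 2 and 3, the order of Spp1 within the model group. Their part in the Spp1 difference was not tested. By Pearson correlation of log2 CPM over the 6 libraries the fitted genes most like Spp1 were Klk8 (r = 0.99), the chaperone gene Hsp90aa1 (0.98) and the T cell receptor constant gene Trbc2 (0.98), and 89 genes exceeded 0.9. With 6 libraries that share their scaling, such values describe likeness only.

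Because Spp1 is the member with the largest difference, the 250 bases before its start are shown as RefSeq gives them (GRCm38.p6, chr5:104434861-104435110, plus strand, the first of 2 starts listed), with a RUNX core (ACCACA) in capitals. RUNX factors are regulators of Spp1 in bone.
Spp1: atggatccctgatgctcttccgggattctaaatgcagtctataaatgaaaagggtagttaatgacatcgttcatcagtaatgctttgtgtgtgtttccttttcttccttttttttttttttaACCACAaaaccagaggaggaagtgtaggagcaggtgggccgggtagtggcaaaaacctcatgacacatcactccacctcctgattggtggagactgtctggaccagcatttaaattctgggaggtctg
The sequence was searched on both strands for that core, for the AP-1 motif TGANTCA and for the TEAD core GGAATG through which YAP acts. The RUNX letters begin 128 bases before the start, and the other 2 motifs were not found in this window. Among all 32851 RefSeq windows of the same length, 14.0% hold the RUNX letters, 6.75% the AP-1 and 12.6% the TEAD letters, so a match is common and is not a measured binding site.

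Clu encodes clusterin, a secreted chaperone that marks a rare crypt population which expands after irradiation. It measured 22.4, 15.6 and 129 CPM in control 1, 2 and 3 and 79.4, 57.8 and 134 CPM in model 1, 2 and 3. Control 1 and control 2 were below all 3 model libraries, and control 3 was above model 1 and model 2, so the groups overlapped. With all libraries the log2 fold change was 0.70 (SE 0.78), smaller than its error. Without control 3 it was 2.26 (SE 0.40), a 4.79-fold difference with groups apart, and without control 3 and model 3 it was 1.85 (SE 0.31), or 3.60-fold. It was 0.31 (SE 0.88) without model 3, 0.33 (SE 0.81) without control 1 and 0.27 (SE 0.71) without control 2. Without model 1 and without model 2 the values were 0.78 (SE 1.03) and 0.94 (SE 0.90). Control 3 was thus the single library that moved the Clu value most.

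The pair of libraries with most Clu, control 3 and model 3, were also those with most B cell marker transcripts (229 and 144 CPM), whereas control 3 alone carried ileal markers and model 3 alone the high pancreas markers. Model 1 and model 2, with B cell sums of 12.5 and 19.1 CPM, had more Clu than control 1 and control 2, with sums of 36.3 and 13.2 CPM. The part of B cell follicles, segment or pancreas in the Clu values was not tested. The genes most like Clu over the 6 libraries were the kinase gene Pim2, the transmembrane mucin Muc3 and the plasminogen activator Plat (r = 0.98 each). Muc3 measured 1483, 1143 and 7025 CPM in the control and 3616, 2507 and 5237 CPM in the model libraries, the same order of libraries as Clu apart from the exchange of control 3 and model 3.

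**Figure D2:**
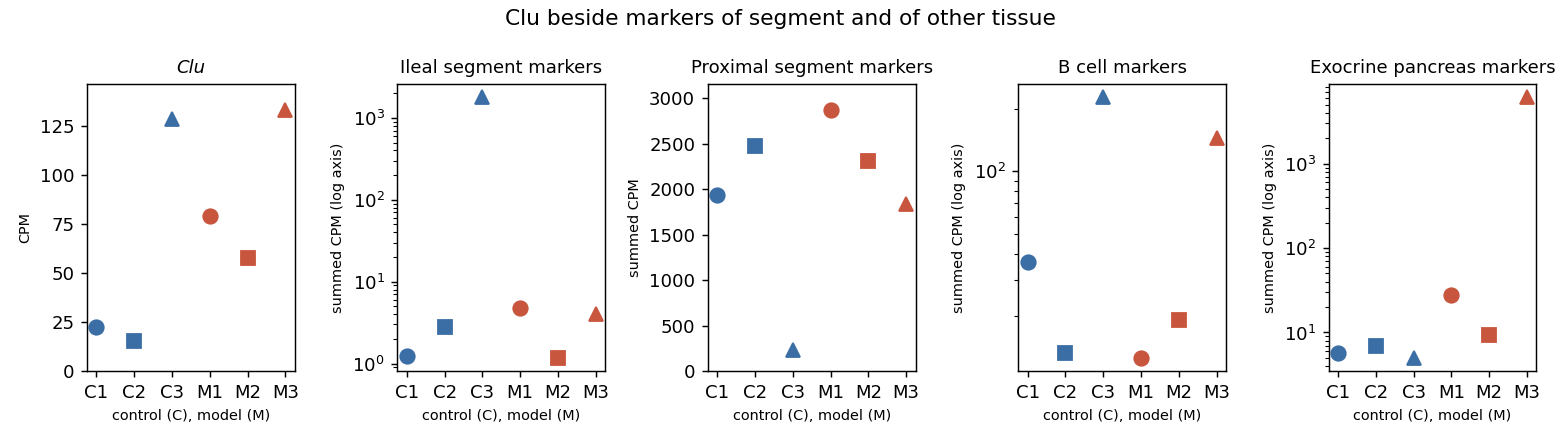
Clu (left, CPM) beside the summed CPM of markers of ileum, proximal intestine, B cells and exocrine pancreas in control 1 to 3 (C1 to C3) and model 1 to 3 (M1 to M3), with log axes where labelled. Clu is at 129 and 134 CPM in control 3 and model 3, the libraries in which B cell markers reach 229 and 144 CPM, and control 3 alone has ileal markers at 1814 CPM.

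Of the members at the cell surface, Cd109 had the opposite direction to Spp1. Cd109 encodes a membrane-anchored glycoprotein that binds TGF-beta receptors and dampens their signal. It had 50, 47 and 87 counts in control 1, 2 and 3, or 1.04, 1.26 and 2.07 CPM, and 10, 6 and 6 counts in model 1, 2 and 3, or 0.346, 0.136 and 0.171 CPM. Every model library was below every control library. The means were 1.45 ± 0.540 CPM and 0.218 ± 0.113 CPM (SD, n = 3), a log2 fold change of -2.75 (SE 0.60), or 6.73-fold lower in the model group. The gene was scarce, with 22 counts over the 3 model libraries and 184 over the controls, so counting error is part of its spread. Control 3 was the highest library, and without it the log2 fold change was -2.39 (SE 0.71). Without control 3 and model 3 it was -2.27 (SE 0.84), and without model 3 alone -2.61 (SE 0.73). Smooth muscle markers, 5 of 5 detected, summed to 1137, 1727 and 1944 CPM in control 1, 2 and 3 and to 1137, 854 and 862 CPM in model 1, 2 and 3, the lowest sums being in the libraries with least Cd109. Among them Myh11, the smooth muscle myosin, was lower in every model library, at 294, 379 and 465 CPM against 536, 748 and 842 CPM. Acta2, Des, Actg2 and Cnn1, the rest of the list, overlapped between the groups, and each was higher in model 1 than in control 1. The part of smooth muscle in the Cd109 difference was not tested. Of the TGF-beta receptor genes, Tgfbr1 was at -0.15 (SE 0.27), Tgfbr2 at -0.12 (SE 0.39) and Tgfbr3 at -0.12 (SE 0.37) on the same scale. The genes most like Cd109 were Bend6, Gm42517 and B130024G19Rik (r = 0.997, 0.995 and 0.994), all under 2 CPM in each library.

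Ly6a encodes Sca-1, a lipid-anchored surface protein that in irradiated or inflamed crypts marks the fetal-like state and is inducible by interferons. It measured 24.5, 26.1 and 36.6 CPM in the control group and 29.1, 52.1 and 18.1 CPM in model 1, 2 and 3. The model group held both the highest library, model 2, and the lowest, model 3, with the controls between them. The means were 29.1 ± 6.59 CPM and 33.1 ± 17.4 CPM (SD, n = 3), and the log2 fold change of 0.19 (SE 0.39) was below its error. The direction depended on single libraries: it was -0.29 (SE 0.32) without model 2, 0.41 (SE 0.43) without control 3, 0.68 (SE 0.34) without control 3 and model 3, and -0.0051 with scaling by library size alone. Of 9 other Ly6 family genes 4 were fitted, Ly6c1, Ly6c2, Ly6d and Ly6e, all 4 with a fold change above 0 (median 0.32) and none apart between groups. Without control 3, when 5 genes were fitted, the split was 4 above and 1 below (median 0.52) with none apart. Without control 3 and model 3 it was 4 and 0 (median 0.70), with Ly6e apart and model above, as 11.8% of all genes were. Over all genes the medians were -0.018 with all libraries, 0.025 without control 3 and -0.014 without control 3 and model 3. Ly6e, the most abundant, measured 211 ± 15.5 CPM in the control group and 253 ± 56.8 CPM in the model group (SD, n = 3), and Ly6c1 10.7 ± 2.46 and 16.0 ± 5.43 CPM. Like Ly6a, Ly6c2 was highest in model 2, at 14.4 CPM against 4.76 to 7.62 CPM elsewhere. Close paralogs in this family may share reads, and no source used here states how such reads were counted. The genes most like Ly6a were St3gal5 (r = 0.99), Pdia4 (0.97) and the chemokine gene Ccl8 (0.97), whose levels also peaked in model 2.

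Cd44, the receptor for hyaluronan and osteopontin and a Wnt target of crypt cells, measured 46.1, 41.8 and 62.9 CPM in the control group and 33.3, 55.2 and 40.9 CPM in the model group. The groups overlapped, and the log2 fold change of -0.22 (SE 0.26) was within its error. Without control 3 the value was -0.012 (SE 0.26), and without control 3 and model 3 it was 0.0056 (SE 0.31). Fibroblast markers, 5 of 5 detected, had their highest sum, 620 CPM, in control 3, where Cd44 was highest, and their lowest, 161 CPM, in model 1, where Cd44 was lowest. Macrophage, smooth muscle and B cell sums were also highest in control 3. Control 1 had a higher fibroblast sum than model 2 (510 against 422 CPM) but less Cd44. The fibroblast sums ran from 165 to 620 CPM in the control group and from 161 to 422 CPM in the model group. The part of these cell types in Cd44 was not tested. The genes most like Cd44 were Rassf4, Nod1 and Alpk1 (r = 0.998 each), but 357 genes exceeded 0.9.

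Msln encodes mesothelin, a lipid-anchored protein of the mesothelium. It was scarce, at 1.88, 2.24 and 3.66 CPM in the control group and 1.52, 0.680 and 3.90 CPM in the model group. Control 3 and model 3 were the highest of their groups, and the groups overlapped. The log2 fold change was -0.35 (SE 0.64) with all libraries, -0.0091 (SE 0.71) without control 3, 0.075 (SE 0.56) without model 2 and -1.24 (SE 0.57) without model 3. It was -0.92 (SE 0.61) without control 3 and model 3. Mesothelial markers, 7 of 7 detected, likewise had their highest sums in control 3 (34.7 CPM) and model 3 (15.0 CPM). The sums were 9.17 and 11.2 CPM in the other controls and 6.67 and 9.03 CPM in the other model libraries. In model 1 and model 2 most of the sum was Upk1b, at 6.96 and 3.88 CPM. This gene was at 3.46 and 2.41 CPM in control 1 and control 2. Upk3b, Lrrn4, Wt1 and Gpm6a were lower in model 1 and model 2 than in control 1 and control 2, while Muc16 and Bnc1 overlapped. Muc16, the mucin to which mesothelin binds, measured 1.86 ± 1.98 CPM in the control group and 0.514 ± 0.537 CPM in the model group (SD, n = 3). The part of mesothelial tissue in the Msln values was not tested.

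The annexins bind membranes in a calcium-dependent way. Anxa2 encodes a membrane and cytoskeleton linker and measured 491, 501 and 703 CPM in the control group and 834, 481 and 554 CPM in the model group. Model 1 was the highest library and model 2 the lowest, so the groups overlapped, and the log2 fold change was 0.14 (SE 0.30). It was 0.35 (SE 0.31) without control 3, 0.40 (SE 0.36) without control 3 and model 3 and -0.13 (SE 0.25) without model 1, and -0.10 (SE 0.28) with scaling by library size alone. Anxa2 forms a complex with S100a10, and among all fitted genes S100a10 ranked 2 by likeness to Anxa2 over the 6 libraries (r = 0.99), after Ldaf1 (0.99) and before Edn1 (0.98). S100a10 measured 209, 251 and 382 CPM in the control group and 566, 221 and 276 CPM in the model group, with model 1 and control 3 the highest for both genes.

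**Figure D3:**
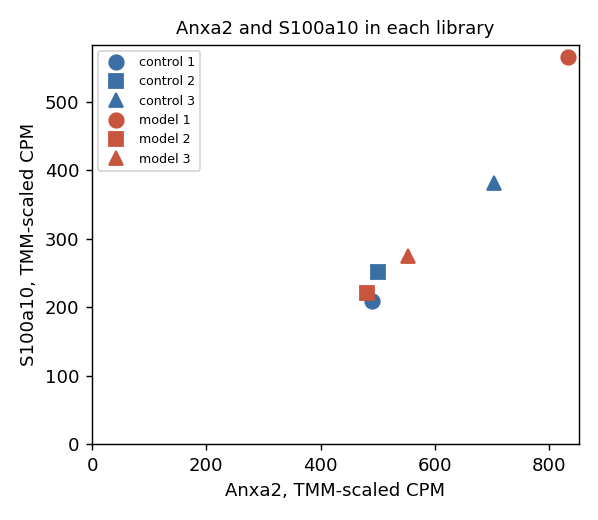
CPM of S100a10 (vertical) against CPM of its partner Anxa2 (horizontal) in each control (blue) and model (red) library, both axes from 0. Model 1, at 834 and 566 CPM, and control 3, at 703 and 382 CPM, are the highest for both genes, and the other 4 libraries lie close together.

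The 250 bases before the start of Anxa2 are shown for comparison with Spp1, since it had the highest level per kilobase of exon among the members and its fold change was near 0 (RefSeq, GRCm38.p6, chr9:69453433-69453682, plus strand). Capitals mark the AP-1 motif, which begins 95 bases before the start.
Anxa2: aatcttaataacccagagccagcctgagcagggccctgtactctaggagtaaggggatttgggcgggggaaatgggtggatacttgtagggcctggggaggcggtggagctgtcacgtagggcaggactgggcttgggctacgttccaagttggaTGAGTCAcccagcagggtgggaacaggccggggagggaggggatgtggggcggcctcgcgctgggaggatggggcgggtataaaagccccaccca
The TEAD and RUNX letters were not found in this window. Of the 8 members, RefSeq windows were at hand for Spp1, Anxa1, Anxa2 and Cd44. The windows of Cd44 and of the second Spp1 start held none of the 3 motifs, and that of Anxa1 held the TEAD letters.

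Anxa1, which encodes the anti-inflammatory annexin A1, was listed at 0 counts in all 6 libraries, as was Anxa8, another annexin gene. The table also lists 0 in each library for B2m, the light chain of MHC class I used by nearly all cells, and for Fabp2, an abundant fatty acid binding protein of enterocytes, both looked up after the zeros were seen. The zeros were therefore not read as absence of the transcripts. Of 10 other annexin genes 9 were fitted, 7 with a fold change above 0 and 2 below (median 0.16). Without control 3 the split was 8 and 1 (median 0.33), with Anxa3, Anxa4 and Anxa5 apart and model above, as 8.14% of all genes were. Without control 3 and model 3 it was 8 and 1 (median 0.35), with Anxa3, Anxa4, Anxa7 and Anxa10 apart, against 11.8% of all genes. Control 3 was the highest control for Anxa3 and Anxa5, so leaving it out favours groups apart with model above for them. Without model 3 alone the split was 7 and 2 (median 0.17). The same 4 annexins were then apart with model above, as 1425 of all 16488 genes were. With all libraries Anxa4 was the 1 gene of these annexins with groups apart, where 4.73% of all genes were apart with model above. It measured 386, 417 and 379 CPM in the control group and 455, 427 and 440 CPM in the model group (log2 fold change of 0.16 with SE 0.20). Anxa13, the annexin typical of the intestine, measured 395, 439 and 107 CPM in the control group and 880, 393 and 561 CPM in the model group, with its low value in control 3. Anxa11, also abundant, was at 0.11 (SE 0.21) on the log2 scale.

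Levels of different members were compared only per kilobase of exon, with lengths from GENCODE M21. Anxa2 led in every library, at 129 to 224 CPM per kb. Ly6a (15.0 to 43.3 CPM per kb) and Clu (4.53 to 38.8) followed with overlapping ranges. Clu was below Cd44 in control 1 (6.53 and 6.81 CPM per kb) and control 2 (4.53 and 6.17) and above it in control 3 (37.5 and 9.28), so their control ranges overlapped. In the model libraries Clu, at 16.8 to 38.8 CPM per kb, lay wholly above Cd44, at 4.91 to 8.14. Msln, at 0.613 to 1.19 CPM per kb in control tissue, exceeded Spp1 (0.173 to 0.422) and Cd109 (0.151 to 0.299) there, and the last 2 overlapped. In model tissue Spp1, at 0.778 to 5.44 CPM per kb, overlapped Msln (0.222 to 1.27), while Cd109 was at 0.0197 to 0.0502. Clu and Cd44 thus overlapped in the control group and lay apart in the model group. Spp1 overlapped Cd109 in the control group and Msln in the model group.

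**Figure D4:**
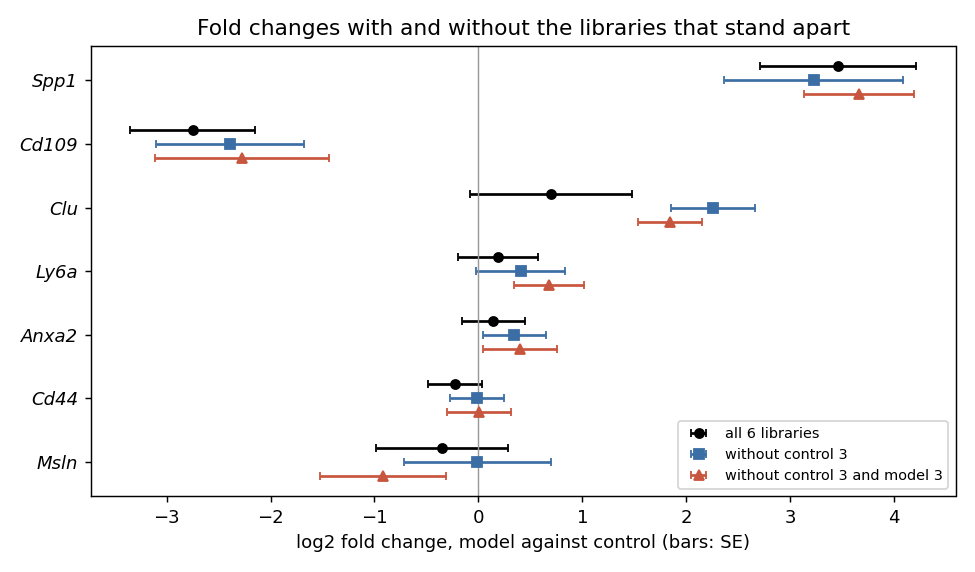
Log2 fold change of each fitted member (horizontal axis, bars are SE) with all 6 libraries, without control 3 and without control 3 and model 3. Spp1 stays between 3.22 and 3.66 and Cd109 between -2.75 and -2.27, while Clu moves from 0.70 to 2.26 without control 3.

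The ligands, receptors and partners of the members, 22 genes of which 21 were fitted, had 5 fold changes above 0 and 16 below (median -0.15). By edgeR 0 were called and 0 had an unadjusted p under 0.05, where 4.81% of all fitted genes had one. Without model 3 alone the split was again 5 and 16, with a median of -0.42 against -0.056 over all genes. In that fit 0 partners were apart with model above and 2 with model below, against 1425 and 1928 of all 16488 genes. Without control 3 the split was 11 and 10 with a median of 0.13, and without control 3 and model 3 it was 9 and 12 with a median of -0.057. In both of these fits 3 genes were apart with model above and 2 with model below. Of all genes 8.14% and 8.26% were so without control 3, and 11.8% and 15.1% without control 3 and model 3. Itgav, Ezr and Vldlr were those with model above, and among the controls each was highest in control 3. Itgb1, an integrin chain that binds osteopontin, measured 335 ± 45.9 CPM in the control group and 293 ± 26.8 CPM in the model group (SD, n = 3), and Itgav had a log2 fold change of 0.015 (SE 0.21). Ezr, which links CD44 to actin, was at 770 ± 181 and 895 ± 181 CPM (SD, n = 3). Has2, a hyaluronan synthase and thus a source of the CD44 ligand, was the 1 gene with groups apart over all 6 libraries. It was scarce, at 0.730, 0.481 and 1.28 CPM in the control group and 0, 0.408 and 0.199 CPM in the model group. Its edgeR adjusted p was 0.851, and 6.33% of all fitted genes were apart with model below.

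A further 27 genes known from regenerating or fetal-like epithelium were listed beside the members, of which 24 were fitted. Fold changes were above 0 for 16 and below 0 for 8, with a median of 0.13 against -0.018 over all genes, and edgeR called 0, with 1 at an unadjusted p under 0.05. Groups were apart for 2 of the 24, both with model above control, where 4.73% of all fitted genes were apart in that direction. One was Areg, a ligand of the EGF receptor, at 7.18, 12.3 and 3.06 CPM in the control group and 13.3, 21.6 and 26.1 CPM in the model group (a log2 difference of 1.44 with SE 0.50, edgeR adjusted p = 0.851). The other was Ecm1, an extracellular matrix protein, at 60.6, 32.0 and 45.8 CPM and 65.7, 73.5 and 65.2 CPM (log2 fold change 0.56, SE 0.25). The most abundant were Emp1, Cldn4 and Cd55. Emp1, a membrane protein, measured 229 ± 68.8 and 276 ± 68.8 CPM, the claudin gene Cldn4 80.6 ± 24.0 and 115 ± 29.8 CPM, and Cd55, an inhibitor of complement, 71.7 ± 16.8 and 59.0 ± 11.2 CPM in the control group and model tissue (SD, n = 3). Ccn1 and Ccn2, which are among the targets of YAP, lay at -0.68 (SE 0.57) and 0.073 (SE 0.37) on the log2 scale. YAP targets were not marked out as a set in this list, so these genes do not stand for all of them.

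As with Clu, the values of this list depended on single libraries, and on control 3 most. The median was -0.11 without control 2, 0.076 without control 1 and 0.12 without model 3. Without model 3, 4 genes were apart with model above and 1 with model below. Of all 16488 genes then fitted, 1425 and 1928 were apart in those directions. Without control 3, 19 of 24 genes had fold changes above 0 and 5 below, with a median of 0.55 against 0.025 over all genes. Groups were then apart for 10 of the 24, all with model above control (Anxa3, Anxa5, Areg, Basp1, Ccn2, Ecm1, Emp1, Plaur, S100a6 and Sprr1a), where 8.14% of all genes were apart in that direction and 8.26% in the other. Areg and Ecm1 had been apart with all libraries. For each of the others control 3 was the highest control. Emp1, for example, measured 308 CPM there against 182 and 196 CPM in control 1 and control 2. Leaving control 3 out thus favours groups apart with model above, so the count of 10 is not a separate result. Without control 3 and model 3 the median was 0.44, and 11 genes were apart with model above and 1, Gja1, with model below, against 11.8% and 15.1% of all genes. No gene of the list was called by edgeR in these fits, and the list was chosen with earlier results of these data known. Among the members, Clu joined Spp1 and Cd109 as apart without control 3 (16.4% of all genes were apart in either direction), and Ly6a and Msln also did without control 3 and model 3 (26.9%), where 2 libraries a group remain.

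**Figure D5:**
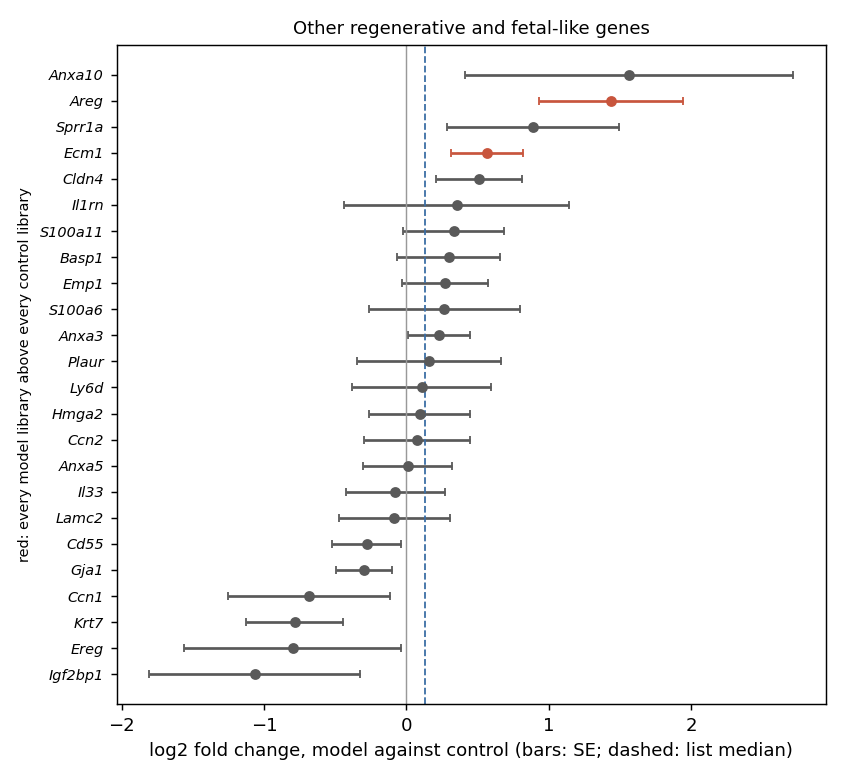
Log2 fold change, model against control, of the 24 fitted genes of regenerating or fetal-like epithelium outside the members (bars are SE, dashed line is the list median of 0.13). Areg and Ecm1, in red, are the genes with every model library above every control library.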

How the data were processed

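Poly-A selected RNA was sequenced per the labels' protocols. Reads were handled with FastQC, Trimmomatic, STAR and featureCounts against GRCm39, per the submitters' processing notes. Annotation, strand and multi-mapping settings and versions are not stated there, so genes with close paralogs (Ly6 family) or antisense partners are uncertain. The authors deposited raw read counts per gene symbol, and 0 columns were left unmatched to a sample. Counts were fitted with edgeR 4.0.16 in R 4.3.3 (filterByExpr, TMM, robust quasi-likelihood F test, group as the only term, Benjamini-Hochberg adjustment over 15904 genes, called at 0.05). The SE of a log2 fold change was obtained from the F statistic (its square root divides the absolute change). Biological variation came to a coefficient of 40.7%. The script was tested on simulated counts. Correlations used log2(CPM + 1). Exon lengths came from GENCODE M21 (GRCm38), used for lengths only.

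The members and the gene lists were chosen with earlier results of these data known. Named are the members, the 3 most abundant fitted genes and the gene with the smallest p of each list, and the 3 genes most like each member. Other named genes were chosen after their values were seen or as list members with groups apart. Alternatives were RLE or library size scaling, other filters on low counts, DESeq2 1.42.0, limma-voom 3.58.1, a block for the replicate number, and fits that leave out 1 library. The fit without control 3 and model 3 was added after the data were seen. Of the listed genes, 1 is not reported here by name.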

Additional observations from a re-analysis of the deposited data

How the results depend on the processing

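Over 13 other fits (scalings, filters, tools, block, 1 library left out) Spp1 ranged from 2.83 to 3.93 and Cd109 from -3.23 to -2.39 on the log2 scale, both without a change of sign. Clu ranged from 0.27 to 2.26. With 1 library left out Ly6a lay between -0.29 and 0.49, Anxa2 between -0.13 and 0.35 and Msln between -1.24 and 0.075. The log2 fold change of Ly6a turned to -0.29 without model 2 and to -0.0051 with scaling by library size alone, that of Anxa2 to -0.13 without model 1 and to -0.10 with library size alone, and that of Msln to 0.075 without model 2. Cd44 was 0.0056 without control 3 and model 3. Scaling by library size alone moved the median of all genes from -0.018 to -0.21. edgeR called 0 genes in each setting, limma-voom called 0, and DESeq2 called 25, the cause of which was not tested. Genes at an unadjusted p under 0.05 numbered 377 to 991 with 1 library left out and 297 without control 3 and model 3, with fewer samples in each. Genes with groups apart numbered 2648 to 4417 and 4295, since smaller groups overlap less often. The median of the regenerative list ranged from -0.11 to 0.55 with 1 library left out. With the replicate number as a block 0 genes were called and 537 had an unadjusted p under 0.05. Libraries of the same number did not deviate together (r = -0.056, -0.31 and 0.33), control 2 was most like model 1 (0.55), and the numbers were not taken to pair the samples. Cd109, Spp1 and Msln are limited by their low counts.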

Other observations

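The receptor Lgr5 and other stem cell genes are lost for a time when crypts take on the fetal-like state, so 6 stem cell markers were described as well. Fold changes were above 0 for 2 and below 0 for 4, with a median of -0.26, and none was called by edgeR. By the same test 1 of the 6 had an unadjusted p under 0.05, as 4.81% of all fitted genes did. Lgr5 measured 14.7, 5.45 and 21.5 CPM in the control group and 6.51, 6.67 and 5.87 CPM in the model group (log2 difference -1.13, SE 0.46, edgeR adjusted p = 0.851). Control 2 lay below the 3 model libraries, so the groups overlapped. Olfm4, Slc12a2 and Smoc2, the most abundant of the 6, had log2 fold changes of 0.11 (SE 0.29), -0.29 (SE 0.24) and -0.22 (SE 0.21). Without control 3 the median was -0.23, with 1 gene above 0 and 5 below, and without control 3 and model 3 it was -0.26, with 2 and 4. Smoc2 was apart with model below in both of these smaller fits, as 8.26% and 15.1% of all genes were.

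Of 7 epithelial genes 3 had fold changes above 0 and 4 below, with a median of -0.12. Without control 3 the split was 4 and 3 with a median of 0.015, and without control 3 and model 3 it was 5 and 2 with a median of 0.15. The adhesion gene Cdh1 was the 1 gene with groups apart in all 3 fits, with model below, as 6.33%, 8.26% and 15.1% of all genes were. The smaller fits reuse the same libraries, so staying apart there is no separate result. Cdh1 measured 951, 970 and 896 CPM in the control group and 811, 850 and 838 CPM in the model group (a log2 difference of -0.17 with SE 0.23). Krt8, Vil1 and Epcam, the most abundant, had log2 fold changes of -0.12 (SE 0.34), 0.029 (SE 0.27) and 0.062 (SE 0.32).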
